A study of Rattus norvegicus with 6 samples.

Results

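The genes described here are 10 members of the Notch pathway: the receptors Notch1, Notch2, Notch3 and Notch4, the ligands Jag1, Jag2 and Dll1, and the target genes Hes1, Hey1 and Hey2. They were taken from the mRNA table by gene name, each matched 1 row of the 30957 genes listed, and all 10 passed the low-count filter. Their levels were compared in the sciatic nerve of Sprague-Dawley rats, 1 month old, between control rats and rats taken on day 4 (D4) or day 7 (D7) after a crush of the left sciatic nerve. The crush was made at mid-nerve with a surgical clamp and was brief. Control rats are called normal in the sample labels, whereas the methods state that their nerve was exposed and not clamped. There were 2 rats in a group and 1 library from each rat, 6 libraries in all, and the letters a and b name different rats in every group. The sex of the rats was not given in the sources used here.

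Notch receptors are single-pass membrane proteins that are activated by ligands on a neighbouring cell. Ligand binding is followed by cleavage of the receptor, and the released intracellular domain enters the nucleus, joins the DNA-binding protein RBPJ and switches on genes such as those of the Hes and Hey families, which encode transcriptional repressors. In peripheral nerve the pathway is known to promote the formation of Schwann cells and to oppose myelination, and in blood vessels it acts in endothelial and mural cells.

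Bulk tissue was sequenced, which the paper describes as normal sciatic nerve in control and lesional tissue on D4 and D7. A higher or lower value from a changed number of cells of a type and one from changed RNA per cell cannot be told apart. Levels are given as fragment counts relative to library size (CPM), with library sizes scaled by TMM factors (trimmed mean of M values), and levels of different genes were compared only as FPKM, which divides by gene length. Total mRNA fragments ranged from 18727255 to 25350886 per library. A gene was called upregulated or downregulated when edgeR's quasi-likelihood test gave an adjusted p under 0.05, with Benjamini-Hochberg adjustment over 15195 tested genes, and the fold change was at least 2. Of 7 Schwann cell and myelin markers, all were detected in every library, with a summed level of 71442 to 104341 CPM in control, 4770 to 5292 CPM on D4 and 11772 to 18490 CPM on D7. Among 8 mural (pericyte and smooth muscle) markers, control b differed most from control a in 3 contractile genes. Acta2, Myh11 and Tagln summed to 750.3 CPM in control a and 5603 CPM in control b, and the other 5 mural markers to 734 and 1174 CPM. All 8 together summed to 1484 and 6777 CPM. The summed mural level was 1121 to 1259 CPM on D4 and 756 to 1470 CPM on D7, and none of the 8 markers was at 0.

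Promoter windows of 250 bases before the transcription start were searched because RBPJ binds a core of the letters GTGGGAA, and Hes1, Hey2 and Dll1 are shown because their windows hold that core on one strand. The windows come from RefSeq on build GRCr8, not the build of the expression tables, and the core is in capitals. Each is written 5′ to 3′ on the strand of the gene. Hes1 lies at chr11:84213046-84213295 on the minus strand, Hey2 at chr1:28640850-28641099 on the plus strand and Dll1 at chr1:64993275-64993524 on the minus strand.
Hes1: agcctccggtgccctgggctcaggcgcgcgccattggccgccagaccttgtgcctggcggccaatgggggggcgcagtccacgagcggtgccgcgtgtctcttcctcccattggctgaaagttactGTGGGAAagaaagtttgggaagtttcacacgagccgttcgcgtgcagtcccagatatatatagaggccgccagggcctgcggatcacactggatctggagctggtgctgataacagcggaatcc
Hey2: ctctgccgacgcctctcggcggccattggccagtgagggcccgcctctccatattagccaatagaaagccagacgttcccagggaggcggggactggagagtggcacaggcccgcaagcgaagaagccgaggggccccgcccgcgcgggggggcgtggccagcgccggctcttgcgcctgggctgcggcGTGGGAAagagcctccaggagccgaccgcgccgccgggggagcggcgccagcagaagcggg
Dll1: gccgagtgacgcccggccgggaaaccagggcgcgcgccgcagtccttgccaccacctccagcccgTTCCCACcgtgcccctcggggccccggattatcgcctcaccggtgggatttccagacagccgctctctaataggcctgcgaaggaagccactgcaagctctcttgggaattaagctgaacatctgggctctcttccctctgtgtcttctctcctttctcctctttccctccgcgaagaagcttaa
In Hes1 the core covers bases 124 to 118 before the start and in Hey2 bases 61 to 55, on the strand of the gene in both. In Dll1 it covers bases 185 to 179 and stands on the opposite strand, so that its reverse complement is printed. The other 6 members with a window, the 4 receptors, Jag1 and Jag2, had no match, and Hey1 had no window in the table used. Of all 33469 promoter windows searched on both strands, 1764 (5.27%) held a match. A match describes letters in a window and is not a binding site shown by these data.

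The 10 members did not move in 1 direction. On D7, Notch1 and Hey1 were upregulated and Notch3, Jag1 and Dll1 were downregulated, which is 5 of 10 members against 18.8% of all genes tested. By direction, 2 of 10 members were called higher against 9.83% of all genes, and 3 of 10 were called lower against 9.02%. The 2 higher calls stood whichever library was left out, and the count of lower calls fell to 0 without control b or D7 a or without TMM factors and to 1 without D4 a or D4 b. On D4, Jag1 alone was called, downregulated, which is 1 of 10 members against 21.9% of all genes in either direction and 10.7% in the lower direction, with 0 of 10 called higher against 11.2%. No member was called on D4 without control b or D4 b, Notch1 alone was called, higher, without D4 a or without TMM factors, and 3 were called lower without control a. At any fold change, the adjusted p was under 0.05 for 2 of 10 members on D4 and 7 of 10 on D7, beside 44.2% and 37.5% of all genes. The median log2 fold change of the members was -0.43 on D4 and -0.56 on D7, beside -0.04 and 0.01 over all genes. D4 and D7 were compared with the same control libraries, so the values of both days share the error of those libraries.

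**Figure D1:**
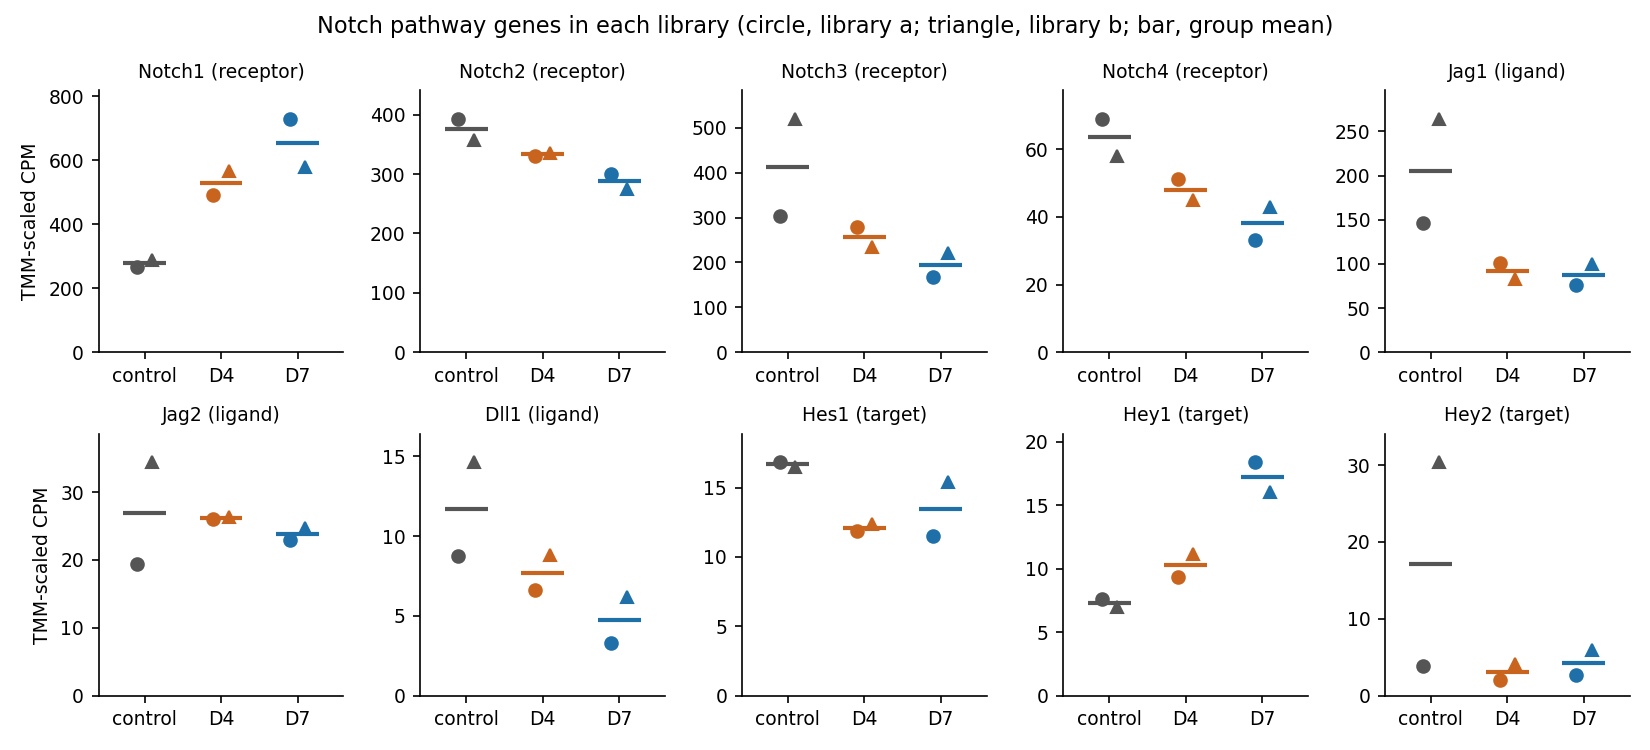
Level of each of the 10 Notch pathway genes in every library, as TMM-scaled CPM on a linear axis that starts at 0, with circles for library a, triangles for library b and bars for group means. Notch1 and Hey1 are above both control libraries in all 4 injured libraries, while Hey2 stands at 30.4 CPM in control b and at 5.99 CPM or below in the other 5 libraries.

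Notch1, the receptor best known for binary cell fate choices, lies at chr3:3905453-3951025 in Rnor_6.0 (ENSRNOG00000019322). It measured 267 and 289 CPM in control a and b, 491 and 565 CPM on D4, and 730 and 580 CPM on D7. All 4 injured libraries were above both control libraries, and both D7 libraries were above both D4 libraries. On D7 the log2 fold change was 1.24 ± 0.15 (SE, n = 2 against 2), with an adjusted p of 0.0018 by edgeR's quasi-likelihood test. On D4 it was 0.93 ± 0.15 (adjusted p = 0.0038, edgeR), a 1.90-fold difference that passed the test but missed the fold threshold. Without TMM factors (1.21) or without D4 a (1.03) it passed the fold threshold too. The D7 call held in all 12 alternative analyses, with log2 fold changes from 1.09 to 1.53.

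Notch2, a broadly expressed receptor, lies at chr2:200187184-200317621 (ENSRNOG00000018835). It measured 393 and 357 CPM in control, 331 and 336 CPM on D4, and 300.04 and 275 CPM on D7, and the 3 groups did not overlap. On D7 the log2 fold change was -0.38 ± 0.10 (adjusted p = 0.0269, edgeR), a 1.31-fold lower level that missed the fold threshold. On D4 it was -0.17 ± 0.10 (adjusted p = 0.206, edgeR).

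Notch3, a receptor known for its role in vascular smooth muscle and pericytes, lies at chr7:14138495-14189688 (ENSRNOG00000004346). It measured 303 CPM in control a and 521 CPM in control b, 278 and 235 CPM on D4, and 168 and 222 CPM on D7. The injured libraries were below both control libraries, and the control libraries differed more from each other than control a did from D4. The log2 fold change on D7 was -1.08 ± 0.28 (adjusted p = 0.0259, edgeR), 2.12-fold lower, and on D4 it was -0.68 ± 0.27 (adjusted p = 0.0882, edgeR). The D7 call was lost in 6 of 12 alternatives: without control b (-0.64), D4 a (-1.08), D4 b (-1.08) or D7 a (-0.86), without TMM factors (-0.79), and in a fit of control and D7 alone (-1.08). Without control a, Notch3 was also called on D4, at -1.02. The summed mural markers moved with Notch3 across the control libraries, and their part in the result was not tested.

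Notch4, a receptor known mainly from endothelium, lies at chr20:4329811-4353785 (ENSRNOG00000000442). It measured 69.1 and 58.1 CPM in control, 51.1 and 44.9 CPM on D4, and 33.3 and 42.9 CPM on D7, with no overlap between control and either injured group. On D7 Notch4 had a log2 fold change of -0.74 ± 0.16 (adjusted p = 0.0155, edgeR), 1.67-fold lower and short of the fold threshold. On D4 it was -0.41 ± 0.16 (adjusted p = 0.0849, edgeR). The 8 endothelial markers found of 9 listed summed to 1013 and 1703 CPM in control, 713 and 639 CPM on D4, and 384 and 618 CPM on D7, and none of the 8 was at 0. Of these markers, 3 of 8 were downregulated on D4 and 5 of 8 on D7, and 1 of 8 and 3 of 8 mural markers were. Between the control libraries, Notch4 was lower in control b and the endothelial sum was higher there. Most of that rise was in Vwf, at 342 CPM in control a and 909 CPM in control b. Cdh5 (177 and 169 CPM) and Cldn5 (82.3 and 67.0 CPM) were lower in control b, and the remaining endothelial markers were higher there. The part of the endothelial markers in the Notch4 values was not tested.

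The makeup of receptor transcripts differed between control and injured nerve. In FPKM, the order in control was Notch3, Notch2, Notch1 and Notch4, with Notch3 at 49.4 ± 19.2 and Notch2 at 41.3 ± 2.10 (SD, n = 2) and with ranges that overlapped. On D4 and D7 the order was Notch1, Notch2, Notch3 and Notch4 without overlap between neighbours. Notch1 made up 21.6% and 19.5% of the summed receptor FPKM in control a and b, against 37.0% and 42.2% on D4 and 53.8% and 45.9% on D7. Both injured groups were above control in the share of Notch1, and D7 was above D4 in both libraries. The share of Notch3 was 32.0% and 45.8% in control, then 27.3% and 22.9% on D4, with 16.1% and 22.9% on D7. Deposited FPKM carries no TMM factor, so sums were compared between groups as TMM-scaled CPM per kilobase. The receptor sum on that scale was 130 and 156 in control, 139 and 141 on D4, and 143 and 132 on D7, and all injured libraries lay within the control range. With 2 libraries per group an exact two-sided permutation test cannot give a p below 0.333, so the shares were not tested.

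**Figure D2:**
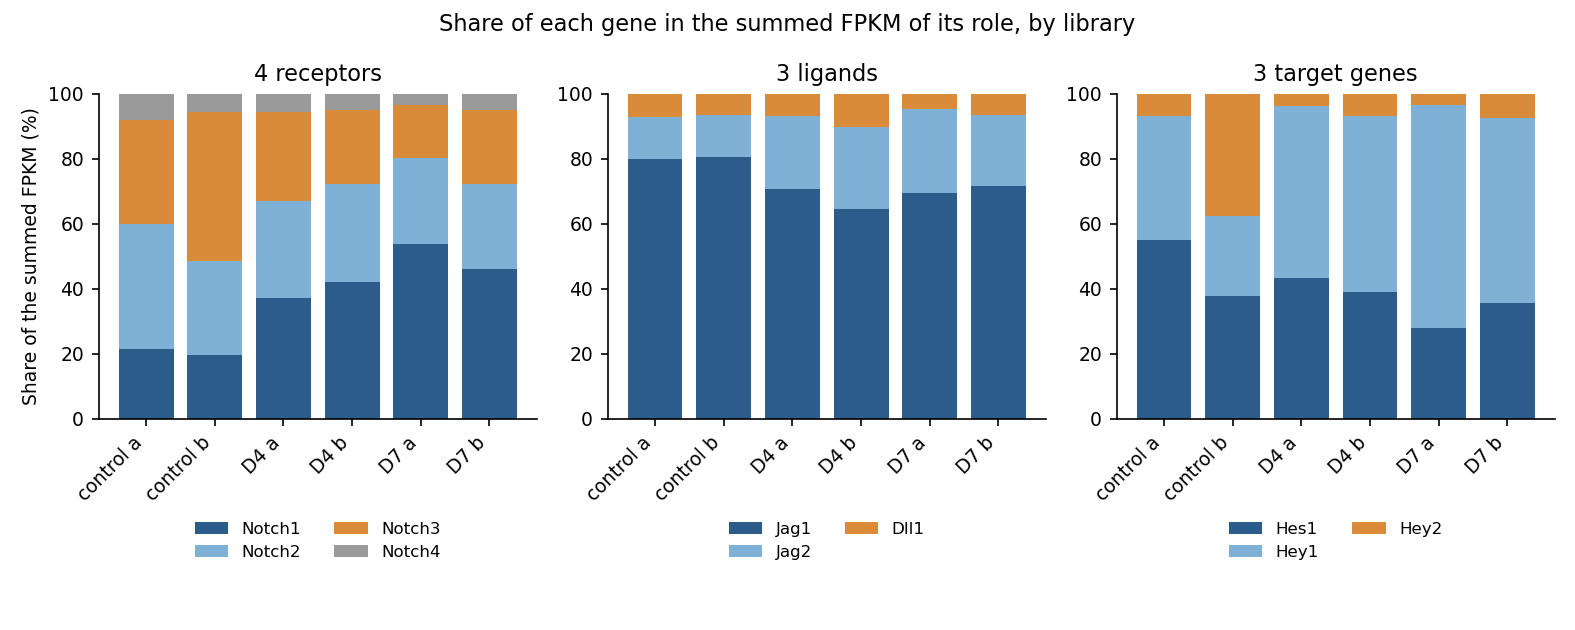
Share of each gene in the summed FPKM of the 4 receptors, the 3 ligands and the 3 target genes, in percent and on a linear axis from 0 to 100, with 1 bar per library. Notch1 takes 19.5% to 21.6% of the receptor sum in control and 45.9% to 53.8% on D7.

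Jag1, a ligand that binds Notch receptors from the neighbouring cell, lies at chr3:130079361-130114770 (ENSRNOG00000007443). It measured 147 CPM in control a, 265 CPM in control b, 101 and 82.9 CPM on D4, and 75.7 and 99.5 CPM on D7. All injured libraries were below both control libraries, and D4 and D7 overlapped. Jag1 had a log2 fold change of -1.16 ± 0.29 on D4 (adjusted p = 0.0215, edgeR) and -1.23 ± 0.29 on D7 (adjusted p = 0.0209, edgeR), which is 2.24-fold and 2.35-fold lower. Without control b the log2 fold changes were -0.68 on D4 and -0.75 on D7, and neither was called. The D4 call was also lost without D4 a (-1.31) or D4 b (-1.03), the D7 call without D7 a (-1.02), and both without TMM factors (-0.88 and -0.94). The summed mural markers were also higher in control b than in control a, at 6777 against 1484 CPM, and their part in the Jag1 result was not tested.

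Jag2, the other Jagged ligand measured, lies at chr6:137711155-137733026 (ENSRNOG00000013927). It measured 19.4 and 34.4 CPM in control, 26.0 and 26.3 CPM on D4, and 22.9 and 24.7 CPM on D7. The injured values lay between the control values on both days. The log2 fold change was -0.04 ± 0.25 on D4 (adjusted p = 0.911, edgeR) and -0.17 ± 0.26 on D7 (adjusted p = 0.622, edgeR), and its sign depended on the analysis.

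Dll1, a Delta-like ligand, lies at chr1:57318708-57327379 (ENSRNOG00000059984) and was the lowest of the 3 ligands in FPKM in every group. It measured 8.76 and 14.7 CPM in control, 6.65 and 8.79 CPM on D4, and 3.33 and 6.18 CPM on D7. D7 was below control in both libraries, whereas D4 b overlapped control a. Dll1 had a log2 fold change of -1.30 ± 0.39 on D7 (adjusted p = 0.0424, edgeR), 2.46-fold lower, and -0.60 ± 0.37 on D4 (adjusted p = 0.239, edgeR). The D7 call was lost in the same 6 alternatives as that of Notch3, with log2 fold changes of -0.88 without control b, -1.30 without D4 a, -1.30 without D4 b, -0.89 without D7 a, -1.004 without TMM factors and -1.29 in a fit of control and D7 alone. Among the ligands, Jag1 took 79.8% and 80.4% of the summed FPKM in control, with 70.6% and 64.5% on D4 and then 69.5% and 71.4% on D7.

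The target genes did not move together. Hes1, a basic helix-loop-helix repressor, lies at chr11:74312806-74315248 (ENSRNOG00000001720). It measured 16.8 and 16.5 CPM in control, 11.9 and 12.4 CPM on D4, and 11.5 and 15.4 CPM on D7. All injured libraries were below control, and D4 fell within the range of D7. Hes1 had a log2 fold change of -0.46 ± 0.17 on D4 (adjusted p = 0.0703, edgeR) and -0.31 ± 0.17 on D7 (adjusted p = 0.199, edgeR), and neither was called.

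Hey1, a repressor of the Hairy-related family, lies at chr2:95320283-95322696 (ENSRNOG00000011593). It measured 7.62 and 6.99 CPM in control, 9.36 and 11.2 CPM on D4, and 18.4 and 16.03 CPM on D7. The 3 groups did not overlap, with D7 highest. On D7 Hey1 had a log2 fold change of 1.23 ± 0.17 (adjusted p = 0.0030, edgeR), 2.35-fold higher, and this call held in all 12 alternative analyses, between 1.16 and 1.53. On D4 it was 0.49 ± 0.17 (adjusted p = 0.0564, edgeR). Hey1 was the only member with an unadjusted p under 0.05 between D7 and D4, where its log2 fold change was 0.75 ± 0.16 (adjusted p = 0.0607, edgeR). DESeq2 gave an adjusted p of 0.0218 for that difference, which stayed below the fold threshold.

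Hey2, the related repressor known from arterial endothelium and smooth muscle, lies at chr1:29191192-29201531 (ENSRNOG00000013364). It measured 3.91 CPM in control a and 30.4 CPM in control b, from 76 and 504 fragments. It was 2.01 and 4.14 CPM on D4 and 2.63 and 5.99 CPM on D7, so that control b stood alone and control a lay within the range of both injured groups. The log2 fold change was -2.47 ± 0.96 on D4 (adjusted p = 0.0819, edgeR) and -1.99 ± 0.95 on D7 (adjusted p = 0.147, edgeR). Without control a it was called on both days, at -3.30 and -2.82, and without control b it was -0.34 and 0.13. The smooth muscle genes Acta2 and Myh11 measured 241 and 298 CPM in control a against 1722 and 2622 CPM in control b, and their part in the Hey2 values was not tested.

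The order of Hes1 and Hey1 in FPKM differed between control and injured nerve. Hes1 was above Hey1 in both control libraries, at 10.1 ± 0.0378 against 6.80 ± 0.295 (SD, n = 2), and Hey1 was above Hes1 on D4, at 11.7 ± 1.46 against 8.95 ± 0.280. On D7 Hey1 reached 19.6 ± 1.72 and Hes1 was at 10.01 ± 2.17, without overlap. In fragments Hes1 was above Hey1 on D4, at 289 and 335 against 228 and 302. The D4 order in FPKM thus rests on the gene lengths that the FPKM imply, 1444 nt for Hes1 and 939 nt for Hey1. Hey1 took 38.2% and 24.6% of the summed target FPKM in control, 52.6% and 54.0% on D4, and 68.7% and 56.9% on D7.

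**Figure D3:**
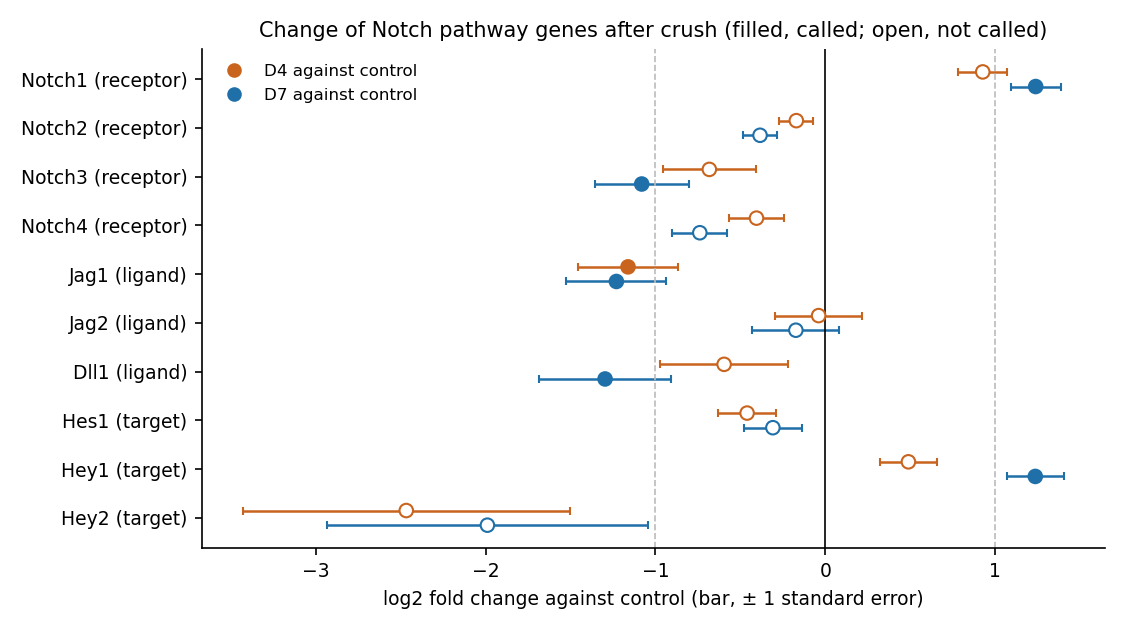
log2 fold change of each Notch pathway gene against control, with bars of 1 standard error from 1 fit of the 6 libraries and dashed lines at a fold change of 2. Filled points mark called genes, which are Jag1 on D4 and Notch1, Notch3, Jag1, Dll1 and Hey1 on D7, and Hey2 has the widest error, 0.96 on D4.

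**Figure D4:**
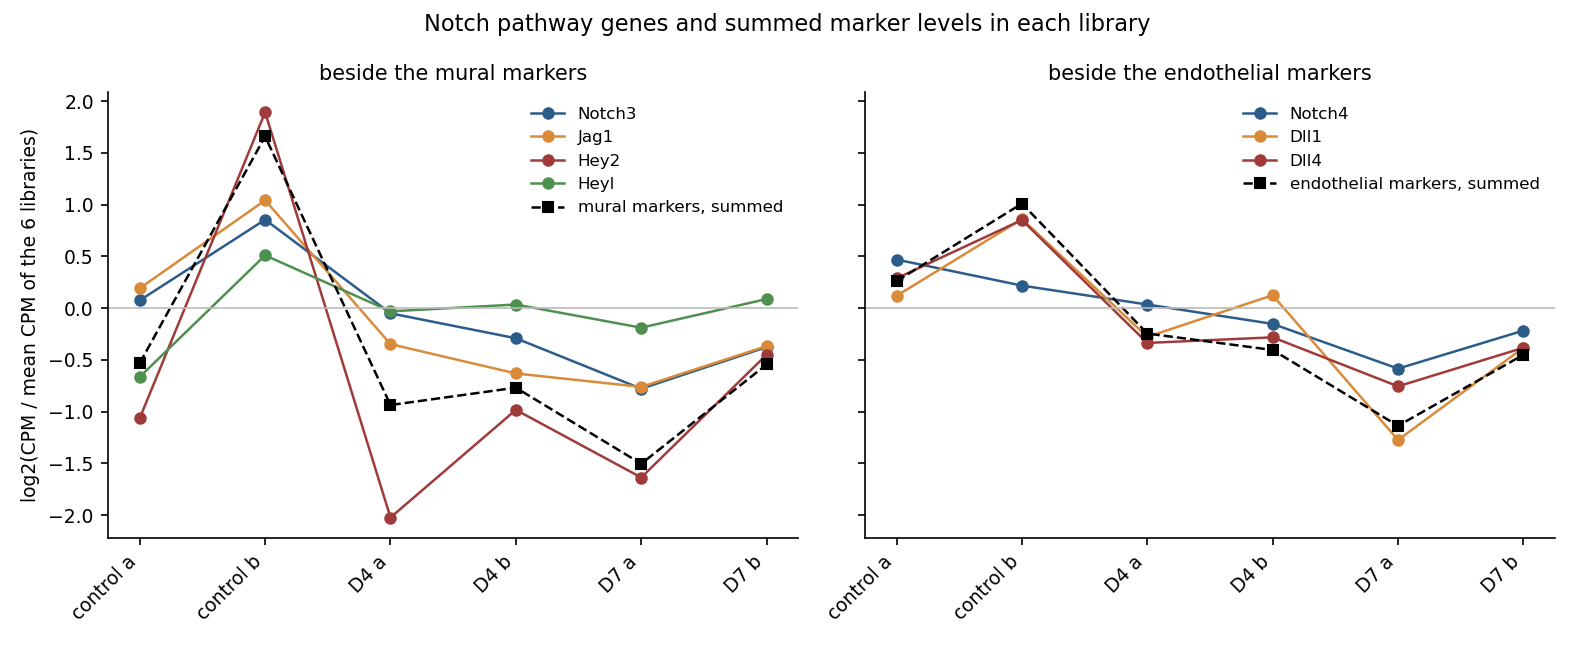
log2 ratio of the CPM of each gene in each library to its mean over the 6 libraries, beside the summed mural markers (left) and the summed endothelial markers (right), drawn as dashed lines with squares. Notch3, Jag1, Hey2 and Heyl are highest in control b, where the summed mural markers reach 6777 CPM.

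D7 differed from D4 in none of the 10 members by the thresholds of edgeR's quasi-likelihood test, where 2.18% of all genes were called. DESeq2 also called 0 members, and 1 member, Hey1, had an unadjusted p under 0.05. The log2 fold changes of the members ranged from -0.70 in Dll1 to 0.75 in Hey1. The libraries of D4 and D7 did not overlap for 7 of 10 members, and this held for 60.6% of all genes. Against control, 7 of 10 members did not overlap on D4 and 8 of 10 on D7, beside 76.2% and 71.9% of all genes, so these counts do not set the members apart.

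A wider list of 57 pathway genes was grouped by role. Of these, 4 (Aph1b, Maml3, Hdac1 and Nrarp) were not found under the symbol, Rbpj had more than 1 identifier and was not counted, and 6 of the remaining 52 (Dll3, Dlk2, Hes2, Hes3, Hes5 and Hes7) were removed by the low-count filter, which left 46 tested. On D4, 6 were upregulated and 2 downregulated of 46, or 8 of 46 against 21.9% of all genes. On D7, 4 were upregulated and 1 downregulated, or 5 of 46 against 18.8%. At these thresholds the shares were 17.4% and 10.9%. At any fold change, the adjusted p was under 0.05 for 30 of 46 on D4 (65.2%, against 44.2% of all genes) and 21 of 46 on D7 (45.7%, against 37.5%). The gaps between the list and all genes were not tested, with or without the fold threshold. The median log2 fold change of the 46 genes was -0.12 on D4 and 0.12 on D7.

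Among the enzymes that glycosylate the receptor, Lfng, a fucose-specific acetylglucosaminyltransferase that changes which ligands a Notch receptor answers to, was the gene with the smallest standard error among those called. It measured 27.4 and 27.8 CPM in control, 132 and 134 CPM on D4, and 98.7 and 96.1 CPM on D7. All injured libraries were above control, and D7 lay below D4 without overlap. Lfng had a log2 fold change of 2.27 ± 0.09 on D4 (adjusted p = 0.00011, edgeR) and 1.82 ± 0.08 on D7 (adjusted p = 0.00025, edgeR), and both calls held in all 12 alternatives. The other 4 genes of this role, Pofut1, Poglut1, Mfng and Rfng, were not called on either day.

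Of the ligands outside the members, Dlk1, a non-canonical ligand made by immature cells, measured 4.64 and 2.23 CPM in control, 33.9 and 31.9 CPM on D4, and 35.8 and 26.6 CPM on D7. The injured libraries were far above control, with log2 fold changes of 3.24 ± 0.33 on D4 (adjusted p = 0.00078, edgeR) and 3.17 ± 0.33 on D7 (adjusted p = 0.0012, edgeR) that were called in all 12 alternatives. Dll4, the Delta-like ligand of endothelium, measured 16.1 and 23.8 CPM in control, 10.4 and 10.8 CPM on D4, and 7.79 and 10.1 CPM on D7. It was below control in every injured library and was called on D7 at -1.15 ± 0.23 (adjusted p = 0.0119, edgeR). That call was lost without control b (-0.85), without D7 a or without TMM factors. On D4 the log2 fold change of Dll4 was -0.90 ± 0.23 (adjusted p = 0.0217, edgeR), short of the fold threshold, and it was called without control a (-1.16). Endothelial markers moved in the same direction, as given above, and their part was not tested. Dner, a ligand first described in neurons, was low throughout, at 0.618 and 0.784 CPM in control, 0.164 and 0.185 CPM on D4, and 0.516 and 0.396 CPM on D7. Its D4 call at -1.96 ± 0.51 (adjusted p = 0.0241, edgeR) was lost in 7 of 12 alternatives.

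Neurl1 and Neurl1b, ubiquitin ligases that promote ligand endocytosis, were both upregulated on D4. Neurl1b measured 6.39 and 8.38 CPM in control, 24.9 and 20.7 CPM on D4, and 13.8 and 15.04 CPM on D7, and its log2 fold change on D4 was 1.63 ± 0.18 (adjusted p = 0.0012, edgeR). On D7 it was 0.97 ± 0.18 (adjusted p = 0.0097, edgeR), just under the fold threshold, which it passed without control b, without D7 a or without TMM factors. Neurl1 measured 0.927 and 1.02 CPM in control, 2.13 and 2.99 CPM on D4, and 2.82 and 1.78 CPM on D7, and was called on both days at 1.39 ± 0.38 (adjusted p = 0.0285, edgeR) and 1.23 ± 0.39 (adjusted p = 0.0490, edgeR). The D7 call of Neurl1 was lost in 9 of 12 alternatives, and the D4 call when any 1 of the control or D4 libraries was left out. Mib1 and Mib2, the other ligases of this role, were not called.

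The proteases that cleave the receptor moved unequally. Furin, which cuts the receptor in the secretory pathway, measured 88.7 and 97.98 CPM in control, 211 and 209 CPM on D4, and 162 and 172 CPM on D7. All injured libraries were above control, with a log2 fold change of 1.17 ± 0.09 on D4 (adjusted p = 0.00035, edgeR) and 0.84 ± 0.09 on D7 (adjusted p = 0.0014, edgeR), the second of which passed the fold threshold only without TMM factors, at 1.13. Adam17, a surface metalloprotease with many substrates, measured 124 and 149 CPM in control, 159 and 152 CPM on D4, and 385 and 305 CPM on D7. D7 stood above all other libraries, with a log2 fold change of 1.34 ± 0.15 against control (adjusted p = 0.0015, edgeR) that held in all 12 alternatives. Adam10, the protease best known for ligand-induced Notch cleavage, measured 501 and 431 CPM in control, 294 and 290 CPM on D4, and 288 and 277 CPM on D7. It was below control in every injured library, at -0.68 ± 0.11 on D4 (adjusted p = 0.0038, edgeR) and -0.72 ± 0.11 on D7 (adjusted p = 0.0038, edgeR), which passed the test and missed the fold threshold.

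Among genes of receptor turnover, 1 of 8, the ubiquitin ligase Dtx1, was downregulated on D4. It measured 26.2 and 35.9 CPM in control, 12.4 and 17.6 CPM on D4, and 22.4 and 19.5 CPM on D7. The log2 fold change was -1.05 ± 0.23 on D4 (adjusted p = 0.0126, edgeR), lost without control b, without D4 a, without TMM factors and in a fit of control and D4 alone, and -0.56 ± 0.23 on D7 (adjusted p = 0.0961, edgeR). None of the 7 tested genes of the nuclear complex was called on either day. Rbpj itself had a low row and a high row, and the high one measured 102 and 109 CPM in control, 140.5 and 125 CPM on D4, and 107 and 118 CPM on D7. Its log2 fold changes were 0.33 ± 0.10 on D4 (adjusted p = 0.0430, edgeR) and 0.09 ± 0.10 on D7 (adjusted p = 0.515, edgeR). The low row measured 2.68 and 1.45 CPM in control, 2.83 and 4.32 CPM on D4, and 3.47 and 3.32 CPM on D7, and was not called. The sequences of the rows were not compared, and fragments may be split between them if they are alike.

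Of 10 corepressor genes, Tle4 was upregulated on D4. It measured 23.6 and 25.6 CPM in control, 45.4 and 56.3 CPM on D4, and 48.1 and 48.5 CPM on D7. The injured libraries were above control, with log2 fold changes of 1.05 ± 0.13 on D4 (adjusted p = 0.0015, edgeR) and 0.97 ± 0.13 on D7 (adjusted p = 0.0027, edgeR). The D4 call was lost without control a or D4 b, and on D7 Tle4 passed the fold threshold without control b, D7 a or TMM factors. Heyl, a Hey-related target known from smooth muscle, measured 17.4 CPM in control a and 39.2 CPM in control b, 26.9 and 28.2 CPM on D4, and 24.1 and 29.2 CPM on D7. The injured values lay between the control values, with log2 fold changes of -0.03 ± 0.35 on D4 (adjusted p = 0.947, edgeR) and -0.08 ± 0.35 on D7 (adjusted p = 0.876, edgeR) whose sign depended on the analysis.

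**Figure D5:**
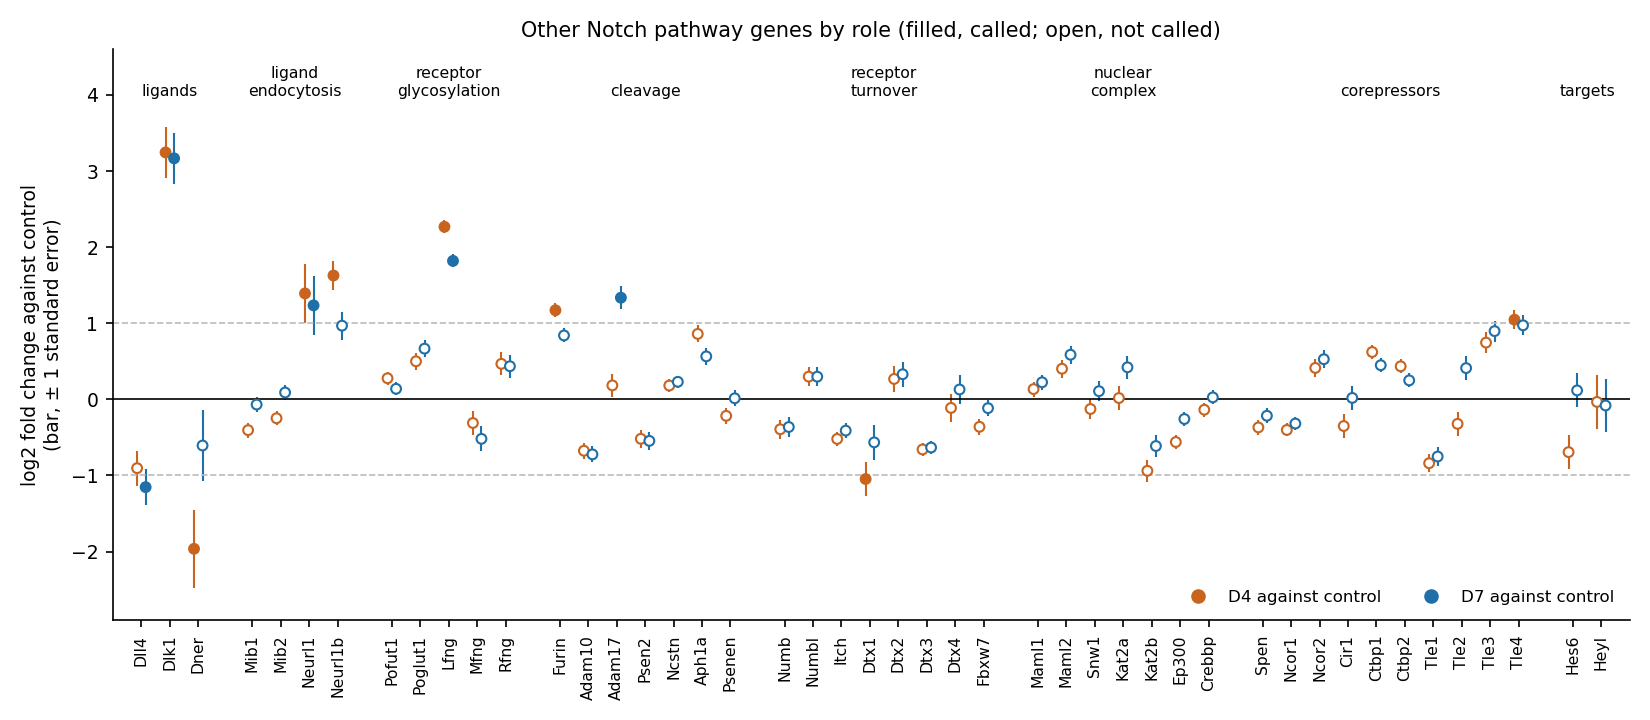
log2 fold change against control of the 46 other Notch pathway genes tested, grouped by role, with bars of 1 standard error, filled points for called genes and dashed lines at a fold change of 2. Dlk1 and Lfng stand highest on both days, at 3.24 and 2.27 on D4, and most other genes lie between the dashed lines.

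Markers of other cell types or states were called in the same libraries. Repair Schwann cell markers were upregulated in 5 of 6 on both days, with a summed level of 134 to 137 CPM in control, 2499 to 2667 CPM on D4 and 1558 to 1633 CPM on D7. Macrophage markers were upregulated in 7 of 7 on D4 and 6 of 7 on D7, from 255 to 296 CPM in control to 907 to 949 CPM on D4 and 595 to 724 CPM on D7. Of 4 cycling markers, all were upregulated on both days. The Schwann cell and myelin markers were downregulated in 5 of 7 on D4 and 4 of 7 on D7, and the perineurial markers in 2 of 3 tested on both days, with Lypd2 at 0 in every library. Of 5 T cell markers, 4 were upregulated on both days and 1 was downregulated on D4. Of 5 fibroblast markers, 1 was called on D7, where it was lower. The 4 skeletal muscle markers found summed to 4.02 and 41.0 CPM in control, 81.2 and 6.72 CPM on D4 and 7.84 and 21.6 CPM on D7, and 4 adipocyte markers to 1146 and 972 CPM in control, 264 and 132 CPM on D4 and 6.62 and 387 CPM on D7, so that libraries of one group differed widely in both. The part of these changes in the Notch1, Hey1, Lfng and Dlk1 values was not tested.

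The profiles most like those of the called members were found by the smallest mean absolute difference of centred log2 CPM over the 6 libraries, among 13707 tested genes with a symbol. The nearest to Notch1 were Plekha5 (0.062), Agrn (0.067) and Tcf7 (0.067), and to Hey1 they were Olfm2 (0.051), Eif4e3 (0.057) and Sall2 (0.067). The nearest to Notch3 were Tm4sf1 (0.054), Fat4 (0.062) and Bmp2 (0.068), to Jag1 they were Lrch2 (0.066), Gata2 (0.075) and Tmem38b (0.077), and to Dll1 they were Pabpc4l (0.095), Wscd1 (0.10) and Plac9 (0.11). Likeness over 6 libraries is a description and carries no test.

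In the lncRNA table, 13 transcripts overlapped the loci of 7 members, and none overlapped Jag1, Hes1 or Hey1. Of these, 11 were tested, and edgeR's quasi-likelihood test called 0 on D4, on D7 or between the days, where 10.1%, 5.79% and 0.249% of all lncRNA transcripts tested were called. An unadjusted p under 0.05 was seen for 0, 3 and 0 transcripts, and DESeq2 called 0, 1 and 0. The transcript called by DESeq2 on D7, NONRATT026559.2 within Notch3, held 211 and 242 fragments in control, 31 and 168 on D4, and 60 and 13 on D7. Within Hey2, NONRATT000110.2 held 3 fragments in control a and 276 in control b, 3 in each D4 library, 1 in D7 a and 80 in D7 b, so that control b was highest, as it was for Hey2 itself. Both transcripts were named after their values were seen. Whether the counting used the strand is not given in the sources used here, so fragments of a gene and of a transcript inside it cannot be told apart.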

How the data were processed

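Sciatic nerve RNA of 6 rats, 2 per group, was sequenced in pairs after ribosomal RNA removal. The authors mapped the reads with HISAT2 2.0.4 to the Ensembl rat genome (Rnor_6.0), assembled transcripts with StringTie 1.3.0, and deposited fragment counts per gene and per lncRNA transcript, with no normalization. The authors also deposited FPKM, which in the mRNA table is the count over gene length and the library's own mRNA total, without a TMM factor.

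Groups were taken from the sample titles. The counts were filtered with filterByExpr (15195 of 30957 genes and 14077 of 22721 lncRNA transcripts kept), scaled with TMM factors (0.863 to 1.08 for genes) and fitted in 1 quasi-likelihood model of the 6 libraries with edgeR 4.0.16 in R 4.3.3, and p-values were adjusted over each table by Benjamini-Hochberg. Calls needed an adjusted p under 0.05 and at least a 2-fold change. Standard errors are the absolute log2 fold change over the square root of F. With 2 rats per group, each p-value sets a group difference against the spread between these libraries. That spread was estimated over all 3 groups, with information shared across genes. FPKM served for levels between genes, as mean ± SD. The procedure was tested on simulated data with known changes. Those data were drawn from the spread that the fit itself estimates and held no outlying library. They therefore do not show how the calls respond to a library such as control b.

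The members and gene lists were chosen with earlier results of these data known. Named were all 10 members, each other pathway gene called in any comparison, and Dll4, Rbpj, Heyl, Nrarp and Lfng whatever their values, and, for each member called against control, the 3 nearest profiles. One further gene of the wider list is not reported here. Marker lists of 11 cell types or states were used as summed CPM. Alternatives were no fold threshold, DESeq2 1.42.0, its size factors in edgeR, no TMM factors, no low-count filter, fits of the compared groups alone, a block for the library letter, and leaving out each library. Promoter windows came from RefSeq (GRCr8). Tables and plots were made with Python 3.11.15, numpy 2.4.6, pandas 2.3.3 and matplotlib 3.10.9.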

Additional observations from a re-analysis of the deposited data

Results flagged for a closer look

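Between D7 and D4 the difference itself was tested for all members and pathway genes, and it passed the adjusted p for 2 of the other pathway genes and for 0 of the 10 members. The share of all genes at any fold change between the days is not given here, so these counts are not set against it. With the fold threshold, 2.17% of the 46 other pathway genes were called, beside 2.18% of all genes. Adam17 was higher on D7 than on D4, with a log2 fold change of 1.15 ± 0.15 (adjusted p = 0.0215, edgeR's quasi-likelihood test), higher in both D7 libraries, and this call was lost without D4 a, without D4 b or without D7 a. Lfng was lower on D7 than on D4, at -0.45 ± 0.08 (adjusted p = 0.0414, edgeR), lower in both D7 libraries and short of the fold threshold. With 2 libraries per group, no library could be tested as an outlier.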

How the results depend on the processing

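Of 648 recomputed log2 fold changes of named genes, 563 kept direction and side of the thresholds, 51 lost the call, 14 gained it and 20 changed sign. Members called were 1 on D4, 5 on D7 and 0 between the days. With no fold threshold there were 2 on D4, and 30, 21 and 2 other pathway genes were called on D4, on D7 and between the days in place of 8, 5 and 1, beside 44.2% and 37.5% of all genes on D4 and D7. The share of all genes between the days is not given here. Without TMM factors, which moved the median of all genes from -0.04 to 0.25 on D4 and from 0.01 to 0.31 on D7, 2 members were called on D7, both higher, and 8 other pathway genes, and 1 member on D4, Notch1, higher. A fit of only the 2 groups compared called 3 members on D7. Leaving out each library in turn gave 0 to 3 members on D4 and 2 to 6 on D7, and 5 to 8 other pathway genes on D4 and 0 to 1 between the days. Without control b, 0 members were called on D4 and 2 on D7. DESeq2 called 1 lncRNA transcript at the members on D7 in place of 0.

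To check the letters, the group mean of log2 CPM was subtracted gene by gene, and the remaining deviations were correlated between same-lettered libraries. The correlation of deviations was 0.01 for control and D4, 0.19 for control and D7 and -0.13 for D4 and D7, over 15195 genes. The letters name different rats, so the replicate block was an alternative alone. With the replicate block, 2 members were called on D4, Jag1 and Hey2 (-2.08), and 5 on D7, and Heyl on D4 was 0.050. With the D4 letters exchanged, a choice made after seeing the data, 1, 5 and 0 members were called.

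Signs that changed were of small, uncalled values, apart from Hey2. Without TMM factors, Notch2 on D4 was 0.12, Jag2 was 0.24 on D4 and 0.12 on D7, and Heyl was 0.25 and 0.21. With only the 2 groups compared, Jag2 and Heyl on D4 were 0.011 and 0.016. Leaving out each library gave ranges of -0.40 to 0.43 for Jag2 and -0.51 to 0.67 for Heyl on D4, -0.53 to 0.29 and -0.56 to 0.62 on D7, and -2.82 to 0.13 for Hey2 on D7. Between the days the ranges were -0.28 to 0.11 for Jag1, -0.077 to 0.34 for Hes1 and -0.23 to 1.09 for Hey2. The cause was not tested. With 2 libraries per group, a call that missed the threshold does not show that a gene was unchanged.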
